A study of Mus musculus with 6 samples.

Results

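The genes described here encode 9 regulators of G protein signalling (RGS proteins), Rgs2, Rgs3, Rgs4, Rgs5, Rgs10, Rgs12, Rgs14, Rgs16 and Rgs19. They were picked by gene symbol from the 23337 genes of the count table, and all 9 had a row. RNA was sequenced from primary sinusoidal endothelial cells of mouse liver, isolated with immunomagnetic beads, plated on collagen IV and deprived of serum. The 3 control libraries (replicates 2, 3 and 4) came from unstretched cells. The 3 stretch libraries (replicates 1, 2 and 4) came from cells under cyclic stretch of 4% at 1 Hz on Flexcell plates, whose membrane is deformed under the cells. The sources used here do not give the strain, age or number of the mice, the duration of stretch, or whether replicates were separate isolations, so p-values measure the spread between these libraries, which may be technical.

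Receptors with 7 membrane passes relay signals by loading GTP onto the alpha subunit of a heterotrimeric G protein, which then separates from its beta and gamma subunits. RGS proteins end the signal: their RGS domain binds the GTP-loaded alpha subunit and speeds up its hydrolysis of GTP. In endothelium this circuit serves receptors for thrombin, sphingosine-1-phosphate, nucleotides, endothelin and lysophosphatidic acid, which set barrier function and vascular tone.

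Rgs16 had the clearest increase of the set after stretch, 3.61-fold, and Rgs5, a low-level transcript, was 2.25-fold higher. Rgs19 rose 1.21-fold and Rgs3 fell 1.16-fold. Rgs2, Rgs4, Rgs10 and Rgs12 did not pass the test, and Rgs14 was too scarce to be tested. With edgeR's quasi-likelihood test across 14222 genes and a Benjamini-Hochberg adjusted p under 0.05, 3 of the 8 tested RGS genes were thus higher and 1 was lower. Of all genes tested 44.0% passed, 21.4% as higher and 22.6% as lower, so the count of 4 of 8 lies near the background and says nothing particular about RGS genes. The median log2 fold change was -0.04 over the 8 genes and -0.01 over all genes tested. A change of at least 2-fold that passed was found for 4.60% of all genes, and an increase of that size for 2.46%, among them Rgs16 and Rgs5. In the authors' deposited table the same 4 of the 9 genes have an FDR under 0.05. Of all its 23336 genes 24.5% do, but these include genes too scarce to be tested here. This share is therefore not comparable with the 44.0%.

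Total gene counts lay between 48948948 and 57923937 in control and from 58503669 to 68489956 under stretch (two-sided exact permutation test, p = 0.1, the lowest possible with 3 against 3). All 8 general endothelial markers and all 8 sinusoidal markers were found in the cells, with summed levels of 6868 to 7907 and 5595 to 8644 CPM (CPM is a count scaled to library size, here corrected by TMM, a trimmed mean method). After stretch 7 of the 8 sinusoidal markers and 5 of the 8 general ones were called lower, as were 22.6% of all genes tested. Hepatocyte markers were called higher for 8 of 10 genes, beside 21.4% of all genes tested. They summed to between 85.5 and 119 CPM in control and to 170.5 to 809.9 CPM under stretch, the top value being stretch replicate 1. Of 12 macrophage markers 10 were tested and 9 were called higher, with log2 fold changes from 0.58 (Csf1r) to 3.25 (Marco). The list summed to 79.4 to 94.4 CPM in control libraries, against 113 to 158 CPM under stretch. Most of this sum was Cd68, with means of 66.9 CPM in control and 81.9 CPM under stretch, the tested marker not called (edgeR adjusted p = 0.0549). The Kupffer cell genes Clec4f and Timd4 were too scarce to be tested, with totals of 6 and 2 counts in control and 30 and 3 in stretch. Of 13 markers of stellate cells, pericytes and smooth muscle 12 were tested and 0 called, and they summed to 124 to 161 CPM in control libraries, against 110.3 to 158 CPM under stretch.

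**Figure D1:**
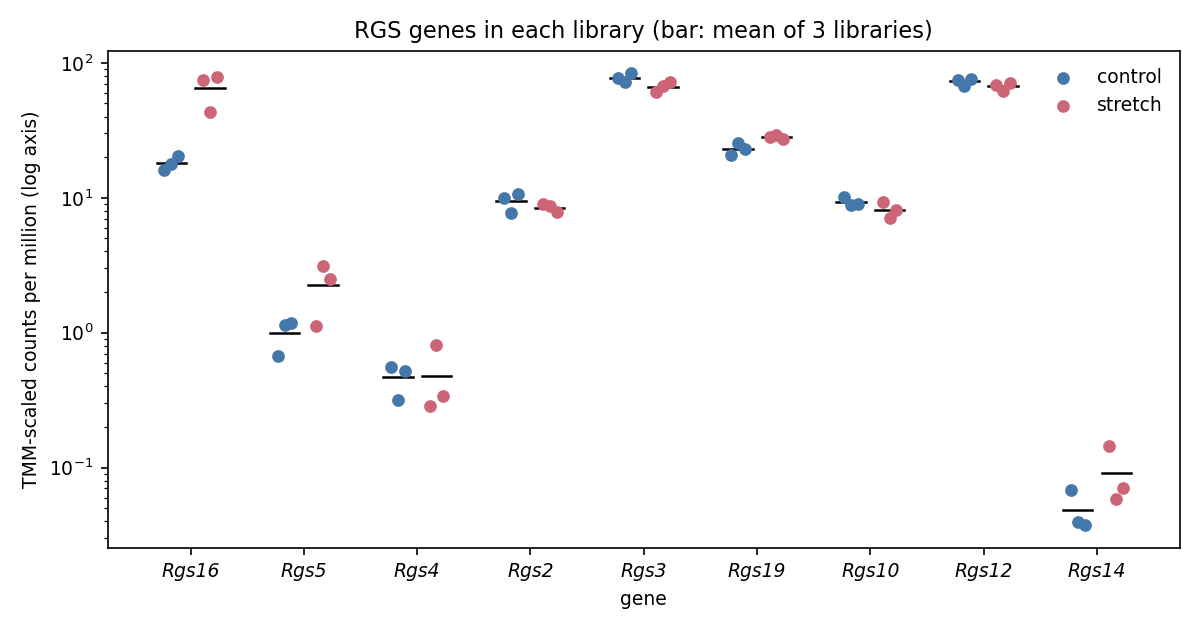
TMM-scaled CPM (log axis) of the 9 RGS genes in each of the 3 control and 3 stretch libraries; points are libraries and black bars are group means. For Rgs16 the stretch libraries lie between 43.3 and 78.4, all above the control libraries at 16.1 to 20.5, and for most other genes the 2 groups lie close together.

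Rgs2, Rgs3, Rgs4, Rgs5 and Rgs16 belong to the R4 group, mostly small proteins with little beside the RGS domain, and 4 of the 5 lie on chromosome 1. Rgs4, Rgs5 and Rgs16 proteins carry an N-terminal cysteine that marks them for rapid, oxygen-dependent degradation, so their transcript and protein amounts can part. The 250 bases before the start site of the 4 genes on chromosome 1 are shown because 2 of these relatives, Rgs16 and Rgs5, were called higher and the other 2, Rgs2 and Rgs4, were not. The sequences are from RefSeq on GRCm38.p6, written 5′ to 3′ on the strand of the gene. Capitals mark CCAAT, the half-site TGACG of the cyclic AMP response element and the TATA element TATAAA, each on either strand; no 2 of these matches overlap in the windows shown.
Rgs16, chr1:153740103-153740352, plus strand: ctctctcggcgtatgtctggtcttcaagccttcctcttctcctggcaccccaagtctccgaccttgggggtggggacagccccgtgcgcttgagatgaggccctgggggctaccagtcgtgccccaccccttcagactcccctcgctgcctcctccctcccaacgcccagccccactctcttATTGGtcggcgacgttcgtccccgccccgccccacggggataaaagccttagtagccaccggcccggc
Rgs5, chr1:169655251-169655500, plus strand: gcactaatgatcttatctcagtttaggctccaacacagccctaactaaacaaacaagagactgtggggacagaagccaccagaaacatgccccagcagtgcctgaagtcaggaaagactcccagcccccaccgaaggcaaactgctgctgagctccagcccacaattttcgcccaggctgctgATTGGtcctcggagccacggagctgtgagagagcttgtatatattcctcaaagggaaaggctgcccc
Rgs2, chr1:144004150-144004399, minus strand: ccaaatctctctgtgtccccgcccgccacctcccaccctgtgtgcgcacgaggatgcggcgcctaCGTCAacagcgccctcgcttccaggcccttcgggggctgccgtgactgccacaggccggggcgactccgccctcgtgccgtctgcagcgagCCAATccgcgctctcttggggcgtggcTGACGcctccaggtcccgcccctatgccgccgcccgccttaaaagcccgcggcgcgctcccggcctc
Rgs4, chr1:169747643-169747892, minus strand: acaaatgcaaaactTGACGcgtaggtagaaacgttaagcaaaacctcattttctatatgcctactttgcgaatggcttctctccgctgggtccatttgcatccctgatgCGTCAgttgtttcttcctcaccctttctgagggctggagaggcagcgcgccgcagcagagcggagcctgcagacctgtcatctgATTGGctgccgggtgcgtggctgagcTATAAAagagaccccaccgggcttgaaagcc

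All 4 windows hold a CCAAT match, a motif that was picked after the sequences had been read. It lies 68 to 64 bases before the start of Rgs16, 67 to 63 before Rgs5, 94 to 90 before Rgs2 and 57 to 53 before Rgs4, and 33.8% of all 32851 windows of this length in the table hold one. TGACG was present 2 times each in Rgs2 and Rgs4, and in neither Rgs16 nor Rgs5 (17.8% of all windows hold it). TATAAA, held by 12.4% of all windows, was present in Rgs4 among the 4. The RefSeq table held 12 windows for 8 of the 9 genes. CCAAT matched in 4 of these 12, all of them among those shown, a share near that over all windows. TGACG matched in 3, also at the inner start of Rgs12. TATAAA matched in 3, also in the windows of Rgs3. The full element TGACGTCA, the NF-kB and CArG motifs, GTGGGAA (RBPJ), GGAATG (TEAD) and CACGTG matched in 0 of these 12, and TGAGTCA (AP-1) matched in 1, at the inner start of Rgs12. Their shares over all windows were 1.55%, 7.25%, 1.47%, 5.42%, 12.6%, 6.02% and 4.46%, in that order. A match is only a description of letters in these windows.

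Rgs16 (chromosome 1, 153740353 to 153745468) encodes a regulator of Gi and Gq signalling. It stood at 16.1, 17.9 and 20.5 CPM in control replicates 2, 3 and 4, and at 75.1, 43.3 and 78.4 CPM in stretch replicates 1, 2 and 4. The groups did not overlap, and even the lowest stretch library, replicate 2, was above each control library. The mean rose from 18.2 ± 2.23 to 65.6 ± 19.4 CPM (SD, n = 3 per group), or by 1.85 ± 0.21 (SE) on the log2 scale (edgeR adjusted p = 0.00027). By size it was number 107 of the 3040 genes called higher. Against a minimum change of 1.2-fold (glmTreat), which 17.8% of all genes passed, Rgs16 was the only RGS gene of the 9 that was called (adjusted p = 0.000686). The direction and the call held in all 15 alternatives, with log2 fold changes between 1.68 and 2.09, and without stretch replicate 1 the value was 1.75. In the authors' deposited table the log2 fold change was 1.85, with an FDR of 3.38e-17. An antisense gene annotated in GENCODE M21, Gm28513, covers 236 of the 2339 exonic bases of Rgs16, and whether counting used strand is not stated, so reads of the 2 cannot be told apart. Hepatocyte and macrophage marker sums were also higher in each stretch library; their part in the change was not tested. In stretch replicates 1, 2 and 4 the macrophage sum was 158, 113 and 138 CPM. The hepatocyte sum was 809.9, 186 and 170.5 CPM in the same libraries.

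Rgs5 (chromosome 1, 169655501 to 169693526) is best known as a marker of pericytes. It had 40, 58 and 63 counts in control and 63, 211 and 140 counts in stretch libraries, that is 0.677, 1.15 and 1.18 CPM against 1.13, 3.11 and 2.49 CPM. Stretch replicate 1 lay within the control range, so the groups overlapped, and the other 2 stretch libraries were above it. The log2 fold change was 1.17 ± 0.39 (edgeR adjusted p = 0.0383). This call held without stretch replicate 1 (1.49, edgeR adjusted p = 0.00426) and was lost without each other library, with edgeR adjusted p of 0.134, 0.068 and 0.0687 on leaving out control replicates 2, 3 and 4, and of 0.127 and 0.108 on leaving out stretch replicates 2 and 4. It was also lost with limma-voom (adjusted p = 0.0716), with glmTreat (adjusted p = 0.0914) and with library sizes alone (edgeR adjusted p = 0.0535). Of the 12 tested markers of stellate cells, pericytes and smooth muscle 0 were called, with log2 fold changes from -0.41 (Kcnj8) to 0.61 (Cspg4, edgeR adjusted p = 0.0732) and a median of -0.01. Fewer cells of a type and less RNA per cell cannot be told apart in such bulk libraries.

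Rgs4 (chromosome 1, 169741477 to 169747642), a regulator of Gi and Gq best known from brain and heart, lies 47.95 kb beyond Rgs5. It was scarcer still, with 33, 16 and 28 counts in control and 16, 55 and 19 in stretch libraries. Its stretch values of 0.287, 0.81 and 0.338 CPM lay on both sides of the control values of 0.559, 0.316 and 0.523 CPM. Stretch replicate 2 held the highest level of both Rgs4 and Rgs5. The summed stellate, pericyte and smooth muscle markers were at 128, 124 and 161 CPM in control replicates 2, 3 and 4, and at 112, 158 and 110.3 CPM in stretch replicates 1, 2 and 4. In the same order Rgs5 was at 0.677, 1.15 and 1.18 CPM in control, and at 1.13, 3.11 and 2.49 CPM in stretch libraries. The part of such cells was not tested. The log2 fold change of Rgs4 was 0.05, and its 95% interval of -1.03 to 1.12 leaves room for a 2-fold change either way. The sign turned with library sizes alone (-0.04), with limma-voom (-0.05), without control replicate 3 (-0.17) and without stretch replicate 2 (-0.56).

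Rgs2 (chromosome 1, 143999338 to 144004149), which acts mainly on Gq and takes part in blood pressure control, had 9.94, 7.67 and 10.7 CPM in control libraries. The stretch libraries had 8.93, 8.62 and 7.81 CPM, all within the control range. The log2 fold change was -0.16 (95% interval -0.46 to 0.14, edgeR adjusted p = 0.361), and Rgs2 was called in 0 of 15 alternatives.

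Rgs3 (chromosome 4, 62559847 to 62703019) is made in long and short forms and can also bind G beta and gamma subunits. GENCODE M21 lists 17 transcripts, which the gene counts do not separate. Levels were 76.8, 72.6 and 83.6 CPM in control libraries, against 61.2, 66.9 and 72.1 CPM under stretch. The groups did not overlap, but the highest stretch library was close to the lowest control library. Rgs3 fell by 0.22 ± 0.07 on the log2 scale (edgeR adjusted p = 0.0394). The call was lost without control replicate 2 (edgeR adjusted p = 0.0917), control replicate 4 (0.136), stretch replicate 1 (0.134) and stretch replicate 2 (0.0965), and narrowly with RLE factors (0.055).

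**Figure D2:**
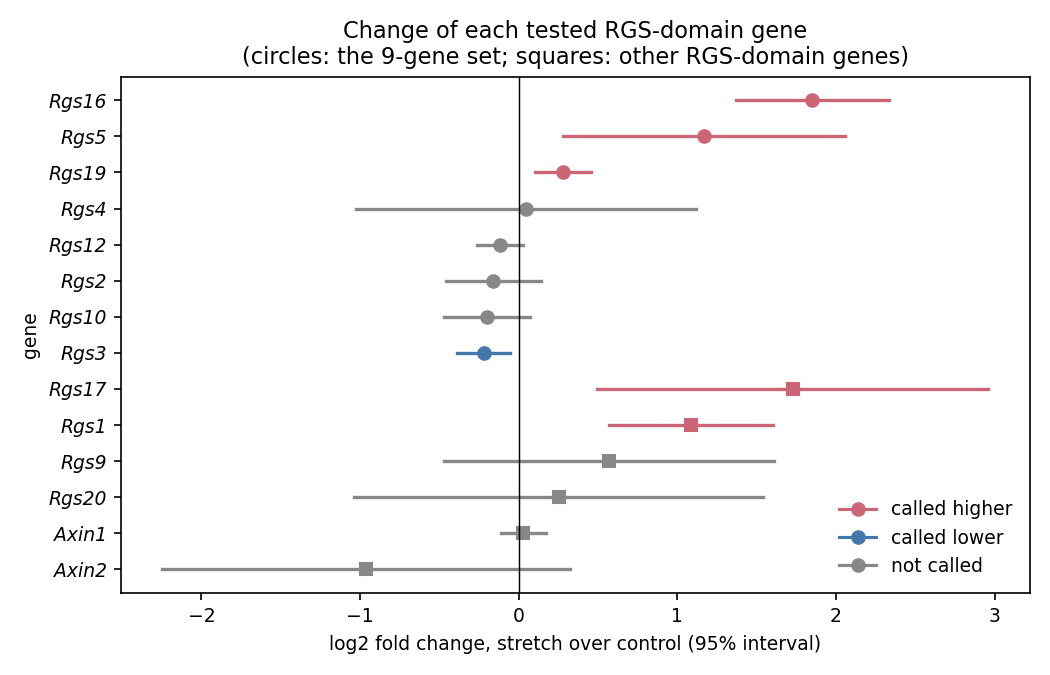
Log2 fold change of stretch over control with its 95% interval for the 8 tested genes of the set (circles) and 6 other genes with an RGS domain (squares). Rgs16 and Rgs5 lie furthest to the right among the circles, at 1.85 and 1.17, and the interval of Rgs4 is the widest of the 8.

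Rgs19 (chromosome 2, 181688423 to 181693924), of the RZ group, has a string of cysteines near its N-terminus and is known as a partner of the alpha subunit encoded by Gnai3. It was at 20.8, 25.5 and 23.2 CPM in control libraries, against 28.1, 29.0 and 27.3 CPM under stretch. Each stretch library was above each control library, and the stretch libraries lay close together. The log2 fold change was 0.28 ± 0.08 (edgeR adjusted p = 0.0187). It missed the threshold without control replicate 2 (0.21, edgeR adjusted p = 0.06), without control replicate 4 (edgeR adjusted p = 0.0548) and with library sizes alone (0.19, edgeR adjusted p = 0.103). The CPM ranges of the groups failed to overlap for 3 of the 9 genes and for 55.9% of all genes tested. Stretch lay above for Rgs16 and Rgs19 and for 26.7% of all genes, and below for Rgs3 and for 29.2%.

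Rgs10, Rgs12 and Rgs14 form the R12 group, which acts mainly on Gi. Rgs10 (chromosome 7, 128373625 to 128418172), a small protein known from macrophages and microglia, was at 10.1, 8.80 and 9.03 CPM in control libraries, against 9.24, 7.03 and 8.07 CPM under stretch. Stretch replicate 1 overlapped the control libraries and the other 2 lay below them (log2 fold change -0.20, 95% interval -0.47 to 0.07, edgeR adjusted p = 0.207). The macrophage marker sum was higher in each stretch library, and its part in the level of Rgs10 was not tested.

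Rgs12 (chromosome 5, 34949448 to 35033593) is a large scaffold with PDZ, phosphotyrosine-binding, Ras-binding and GoLoco domains, the last of which holds Gi alpha subunits in their GDP form. It was among the most abundant of the set, at 75.3, 67.9 and 75.6 CPM in control libraries, against 68.6, 62.4 and 70.4 CPM under stretch, and the groups overlapped. The log2 fold change was -0.12 (95% interval -0.27 to 0.03, edgeR adjusted p = 0.165). Rgs12 was called lower in 2 of 15 alternatives, one of them library sizes alone (-0.21, edgeR adjusted p = 0.0188). Of its 8487 exonic bases 467 lie under exons of the antisense gene Gm43791.

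Rgs14 (chromosome 13, 55369732 to 55384687), which shares the Ras-binding and GoLoco domains and is best known from the hippocampus, had 4, 2 and 2 counts in control and 8, 4 and 4 counts in stretch libraries. The values overlap and are near the limit of detection. The ratio of stretch to control was 1.81, and its exact binomial 95% bounds, which reflect counting error alone, were 0.732 and 4.9. Counts from 1 to 10 were even for 67.2% to 69.9% of genes in a library, against 49.6% to 50.9% of counts of at least 1000, so single counts may not be independent and the interval may be too narrow. Without a filter on low counts its log2 fold change was 0.87 (edgeR adjusted p = 0.506).

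Levels were compared between genes per length, as RPKM made from the TMM-scaled CPM and the gene length in the deposited table. In control cells Rgs19 had the highest level, 15.9 ± 1.61 RPKM, before Rgs12 with 13.03 ± 0.78, Rgs10 and Rgs3 with 10.6 each, Rgs16 with 7.78 ± 0.95 and Rgs2 with 3.14 ± 0.52 RPKM (SD, n = 3). Rgs5 followed with 0.553 ± 0.155 RPKM, Rgs4 with 0.159 ± 0.045 and Rgs14 with 0.0205 ± 0.0072 RPKM. Only the neighbours Rgs10 and Rgs3 overlapped in this order. In stretched cells Rgs16 came first with 28.1 ± 8.3 RPKM, but its range overlapped that of Rgs19, which had 19.3 ± 0.59 RPKM. The other genes kept their order, and Rgs10 and Rgs3 overlapped again. The table's length for Rgs5 is 1809 bases, whereas GENCODE M21 gives it 4546 exonic bases. These lengths also differ for Rgs10 (875 and 1711), Rgs19 (1457 and 2230), Rgs12 (5597 and 8487) and Rgs3 (7301 and 10801). For Rgs16 they are nearly equal (2335 and 2339). The order of the genes, their overlaps, and the sums and shares given next thus depend on the gene model.

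The levels of the 9 genes summed to 60.6, 60.6 and 64.4 RPKM in control and to 86.4, 71.7 and 88.1 RPKM in stretch libraries. Without Rgs16 the sums were 53.7, 53.0 and 55.6 RPKM in control and 54.2, 53.1 and 54.5 RPKM in stretch libraries, so these sums overlapped. The share of Rgs16 in the summed level went from 12.6 ± 1.14% in control to 33.7 ± 6.82% in stretch libraries (SD, n = 3 per group). Shares of a sum are tied to each other, and those of Rgs2, Rgs3, Rgs10 and Rgs12 lay below the control range in all 3 stretch libraries.

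**Figure D3:**
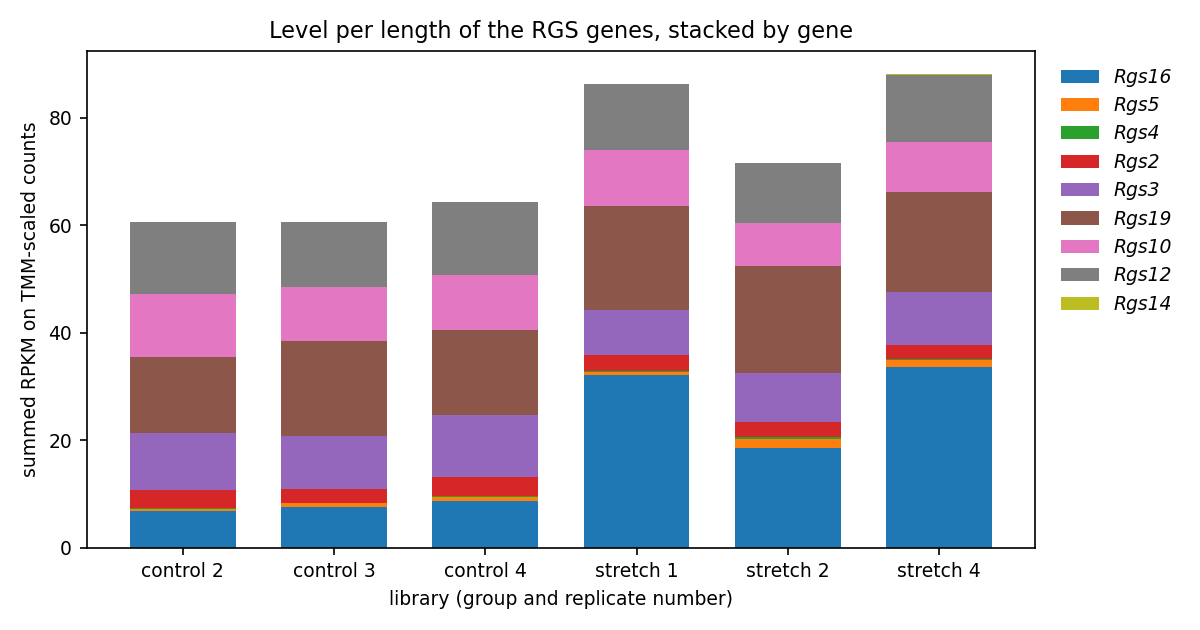
Level per length (RPKM on TMM-scaled counts) of the RGS genes, stacked by gene for each library. The bars reach 60.6 to 64.4 RPKM in control and 71.7 to 88.1 RPKM in stretch libraries, and the bottom segment, Rgs16, takes 25.9% to 38.1% of each stretch bar.

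Among 14 other genes with an RGS domain 13 had a row and 6 were tested, of which 2 were higher and 0 lower. For all genes tested the shares were 21.4% and 22.6%. Rgs1 (chromosome 1, 144244669 to 144249104), an R4 regulator known from lymphocytes and macrophages, was at 0.982, 1.05 and 0.841 CPM in control libraries, against 2.44, 1.78 and 1.89 CPM under stretch, without overlap. Its log2 fold change was 1.09 ± 0.23 (edgeR adjusted p = 0.00504), and it was called in all 15 alternatives. Macrophage markers moved with Rgs1, and their part was not tested. Markers of lymphocytes and platelets were at 4.57 to 5.96 CPM in control libraries, against 4.88 to 6.35 CPM under stretch in sum, with Cd3d and Ms4a1 at 0 and 0 of 4 tested members called. Rgs17, a relative of Rgs19, had 10, 7 and 6 counts in control and 46, 21 and 16 in stretch libraries, and rose by 1.73 ± 0.54 on the log2 scale (edgeR adjusted p = 0.0303). It passed the low-count filter through its stretch libraries, so the filter favoured a call as higher. Without stretch replicate 1, which held 46 of these counts, the value was 1.08 (edgeR adjusted p = 0.121); the call was also lost without control replicates 2, 3 and 4 (edgeR adjusted p = 0.0721, 0.0793 and 0.0968) and with limma-voom (adjusted p = 0.058). Axin1, a scaffold of beta-catenin degradation, was at 53.3 ± 0.66 CPM in control libraries, against 54.4 ± 4.43 CPM under stretch (log2 fold change 0.03, edgeR adjusted p = 0.73). Axin2, a Wnt target, missed it at -0.96 (edgeR adjusted p = 0.201). Without stretch replicate 2, 1 gene of this list was called lower. Rgs9 and Rgs20 did not pass. Rgs13 and Rgs22 had no count, and Rgs6, Rgs7, Rgs8, Rgs11 and Rgs18 had totals of 4, 2, 0, 31 and 0 counts in control and 0, 2, 2, 22 and 6 in stretch. Rgs8, which ends 42.69 kb before Rgs16, thus stayed near 0 in both groups.

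The alpha subunits are the direct targets of RGS proteins. Of 15 tested, 3 rose, 5 fell and 7 did not pass (median log2 fold change -0.20), while 22.6% of all genes tested fell. The 3 that rose were Gnai3 (0.48 ± 0.05, edgeR adjusted p = 0.000211) and Gnai1 (0.39 ± 0.06), both of the Gi family, and Gna13 (0.44 ± 0.04). Gnai3 went from 263 ± 10.5 to 367.6 ± 16.2 CPM. The third Gi gene, Gnai2, missed the threshold at -0.11 (edgeR adjusted p = 0.0942). The 5 that fell, named after their values were seen, were the Gq family genes Gnaq (-0.35), Gna11 (-0.20) and Gna14 (-0.81), and also Gna12 (-0.29) and Gnal (-0.59). Gnas, the Gs subunit, had a log2 fold change of -0.01. Rgs19 and its partner gene Gnai3 were both called higher, as were 21.4% of all genes tested. The call of Rgs19 held in 11 of 15 alternatives, and a link between these genes was not tested.

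Of 12 tested beta and gamma subunit genes 3 rose, 2 fell and 7 did not pass (median log2 fold change 0.05). Among all genes tested 21.4% were higher and 22.6% lower. Gng5 rose by 0.21 ± 0.05 (edgeR adjusted p = 0.00591), Gngt2 fell by 0.23 ± 0.05 and Gnb5, the subunit that partners the R7 group of RGS proteins, fell by 0.50 ± 0.13 on the log2 scale. With library sizes alone 0 of the 12 were higher and 3 lower, and 1 was higher without control replicate 2, stretch replicate 1 or stretch replicate 4. Without control replicate 4 the call of Gnb5 was lost (edgeR adjusted p = 0.0505), and 1 gene of the list was lower.

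Receptor kinases and arrestins switch receptors off upstream of the G protein. Of 8 tested, 2 rose, 3 fell and 3 did not pass (median log2 fold change -0.02). The shares over all genes tested were 21.4% higher and 22.6% lower. Arrb1 fell by 0.95 ± 0.11 on the log2 scale, from 224.6 ± 23.6 to 116 ± 15.6 CPM (edgeR adjusted p = 0.000244), and Arrb2 fell by 0.44 ± 0.05. The kinase gene Grk5 fell by 0.27. Adrbk1, which encodes the kinase GRK2, rose by 0.18 ± 0.04 (edgeR adjusted p = 0.00786), and Grk6 by 0.17. The count of higher genes was 0 with library sizes alone and 1 without any single library other than stretch replicate 2. Among 8 other regulators 1 rose, 1 fell and 6 did not pass (median log2 fold change -0.02). These were Gpsm1 (0.66 ± 0.10, edgeR adjusted p = 0.000896) and Gpsm2 (-0.66 ± 0.14, edgeR adjusted p = 0.00536), both GoLoco proteins like Rgs12 and Rgs14. Without stretch replicate 1, 2 of these regulators were lower.

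Effectors carry the signal of the alpha subunits onward. Of 14 tested, 5 fell, 1 rose and 8 did not pass (median log2 fold change -0.09), beside 22.6% lower and 21.4% higher among all genes. Arhgef11, an effector that itself carries an RGS homology domain, fell by 0.54 ± 0.06 (edgeR adjusted p = 0.000189), from 85.5 ± 1.8 to 58.7 ± 3.99 CPM. Adcy6, an adenylyl cyclase that Gi inhibits, fell by 0.42 ± 0.05, and Plcb3, a phospholipase C that Gq activates, by 0.25 ± 0.04 on the log2 scale. Adcy9 (-0.59) and Arhgef1 (-0.24) fell as well. The gene that rose was Adcy4 (0.21), and 0 effectors were higher with library sizes alone or without any single library other than control replicate 2.

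Of 32 tested vascular receptors that couple to G proteins, 6 rose, 7 fell and 19 did not pass (median log2 fold change 0.04). These counts lie near the shares of all genes tested, 21.4% higher and 22.6% lower. The proton-sensing receptor gene Gpr4 rose from 52.8 ± 5.14 to 116.1 ± 14.6 CPM (1.14 ± 0.10, edgeR adjusted p = 9.79e-05), and the nucleotide receptor gene P2ry2 rose by 1.08 ± 0.10. P2ry1 (0.75), Ednra (1.11) and the sphingosine-1-phosphate receptor genes S1pr1 (0.49) and S1pr2 (0.38) were also higher. Lpar6, a lysophosphatidic acid receptor gene, fell by 0.85 ± 0.10 on the log2 scale, from 503 ± 51.8 to 279.4 ± 31.6 CPM. The thrombin receptor gene F2r fell by 0.38, Ptger1 by 0.32 and the thromboxane receptor gene Tbxa2r by 1.34, and F2rl3 and Cxcr7 (now Ackr3) were among the others that fell. Without control replicate 4 or stretch replicate 4, 4 receptors were lower.

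**Figure D4:**
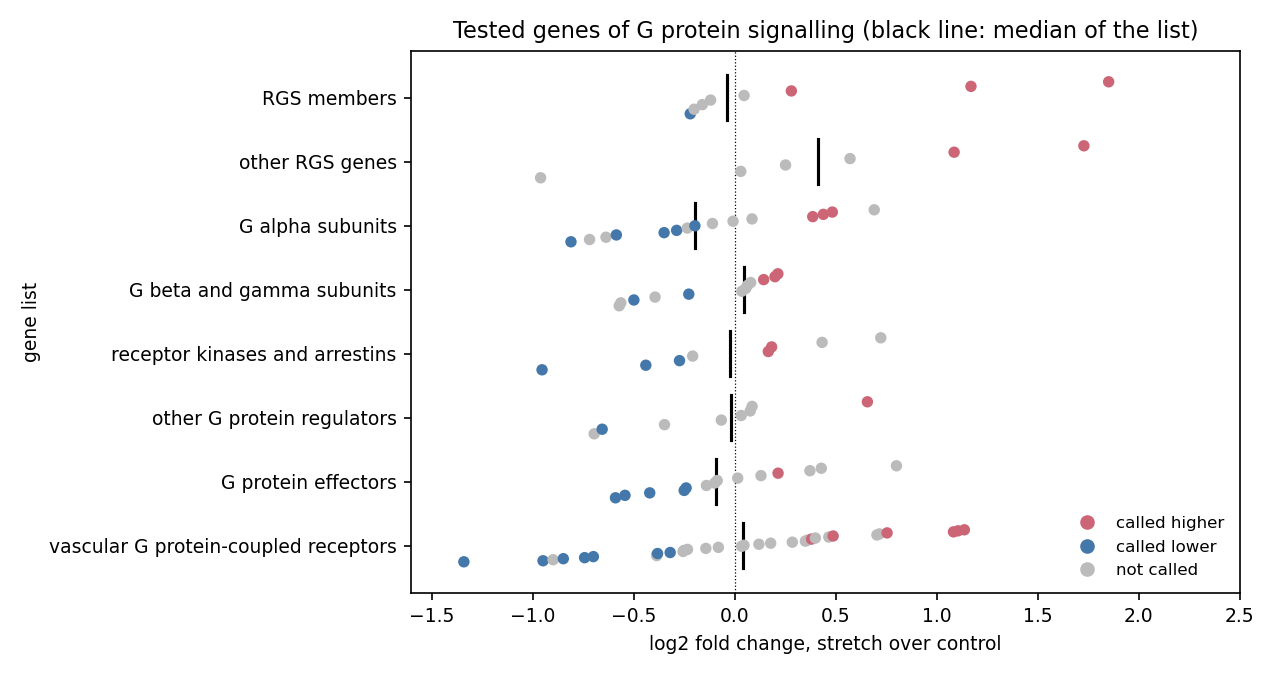
Log2 fold change of stretch over control for each tested gene of the RGS set and of 7 other lists of G protein signalling; points are genes, coloured by call, and black lines are list medians. Medians lie between -0.20 and 0.41, and Rgs16 at 1.85 is the point furthest to the right.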

How the data were processed

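The data are 6 RNA-seq libraries of liver sinusoidal endothelial cells, 3 control and 3 stretch, grouped by sample title. The deposited gene counts are unnormalized. Per the submitters' processing notes, TopHat2 2.1.0, edgeR and featureCounts were used, with GRCm38 (mm10). For the annotation and for strand in counting, the sources used here give nothing. The RPKM values, log2 fold changes, score (likelihood ratio) and p-value with FDR in the authors' deposited table were made by the authors, per the file headers. The test was that of edgeR 4.0.16 under R 4.3.3 (TMM, filterByExpr, quasi-likelihood F test for group, Benjamini-Hochberg adjustment over all 14222 genes tested, threshold 0.05). The SE was taken as the log2 fold change over the root of its F value, and 95% intervals use the t distribution. The steps were tested on simulated data, where genes changed 1.5-, 2- and 4-fold were recovered at 68.7%, 73.1% and 97.0%. There 12 unchanged genes were called. In the simulation a far smaller part of the genes was changed than the 44.0% called here. Alternatives covered scaling, filters, DESeq2 1.42.0, limma-voom (limma 3.58.1), glmTreat, the replicate block and leaving out each library.

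The members and lists were chosen with earlier results of these data known. All 9 members were named; of each other list the up to 3 called genes with the smallest p, or the 2 smallest where fewer than 2 were called, were named by rule, and any further gene after its values were seen. Of the 9 members, 8 had a promoter window in the RefSeq table; Rgs14 had none. Older symbols Adrbk1, Emr1 and Cxcr7 are those of the table.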

Additional observations from a re-analysis of the deposited data

How the results depend on the processing

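Rgs16 kept its direction and call in all 15 alternatives (log2 fold change 1.68 to 2.09), whereas Rgs5 was called in 7 of 15, Rgs3 in 9 and Rgs19 in 11. The number of called members was 4, and 1 to 3 with single libraries left out (1 to 3 higher, 0 to 1 lower). Against a minimum of 1.2-fold (glmTreat) 1 member was called, 1 higher and 0 lower, and 2537 of all genes, 1210 higher and 1327 lower. With RLE factors 0 members were lower. With library sizes alone 1 member was higher and 2 lower, and over all genes 2091 were higher and 4299 lower, against 3040 and 3221 with TMM. For Rgs4 the sign turned with library sizes alone (-0.035), limma-voom (-0.048) and single libraries left out (-0.56 to 0.31). Rgs17 gave no value under the filter of 1 CPM in 3 samples, and neither did Rgs4. In the pathway lists glmTreat left 1 other RGS gene higher, 1 alpha subunit lower, 0 beta or gamma subunits, 0 kinases or arrestins higher, 0 effectors higher and 3 lower, and 3 receptors lower. Upper-quartile factors, no filter and limma-voom each left 1 kinase or arrestin higher, and library sizes alone gave 2 other regulators lower. For these results the cause was not tested. Total counts stayed higher in stretch libraries with each library left out.

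Control and stretch share the numbers 2 and 4, without any statement in the labels of what a number stands for. Deviations from the group means correlated across genes at 0.21 and 0.11 for the same-numbered pairs and at -0.20 to 0.18 for the others, so a pair of unlike numbers exceeded one of the like-numbered pairs. With the replicate number as a block 5 members were called, 3 higher and 2 lower. Rgs12 was added (edgeR adjusted p = 0.036), Rgs17 was not called (1.07, edgeR adjusted p = 0.204), and 5568 genes were called in all. Control replicate 3 and stretch replicate 1 share their number with no other library, so this fit drew the group effect from replicates 2 and 4 alone. The added call of Rgs12 thus rests on fewer libraries than the main fit. Depth limits Rgs1, Rgs4, Rgs5, Rgs14 and Rgs17, none of which exceeded 211 counts in a library.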
